A study of Mus musculus with 17 samples.

Results

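The microRNA miR-9 was followed through both of its mature strands, miR-9-5p and miR-9-3p (rows mmu-miR-9-5p and mmu-miR-9-3p), in differentiating mouse embryonic stem cells. The strands were found by their names and make up 2 of the 1033 miRNA rows of the deposited table. Small RNA libraries had been made from the embryonic stem cell lines D3 and B8. Values of 14 libraries in 5 groups were used: D3 at day 0 (3 libraries), D3 at day 7 (2 libraries, replicates 2 and 3), D3 at day 21 (3 libraries), B8 at day 7 (3 libraries) and B8 at day 0 (3 libraries). B8 at day 21 was not analysed here. No genotype or genetic change is given for either line. Day 0 cells were undifferentiated stem cells, grown without feeder cells in medium with LIF, the cytokine that holds them in the pluripotent state. Day 7 samples were embryoid bodies, aggregates of differentiating cells raised in hanging drops. Day 21 samples came from the outgrowths of embryoid bodies. All day 7 and day 21 cultures lacked LIF and received retinoic acid (RA), insulin-transferrin-selenium (ITS) and the N2 supplement. The groups therefore differ in culture form and medium as well as in time.

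A miRNA hairpin is cut by Drosha and then by Dicer into a short duplex. One strand of the duplex is usually loaded into an Argonaute protein and guides it to messenger RNAs through the seed, bases 2 to 8, while the other strand is mostly degraded. miR-9 is known as a miRNA of the developing nervous system, where it is abundant in neural progenitors and acts in the balance between proliferation and neuronal differentiation. miR-9-5p is known to repress the transcription factor genes Rest and Nr2e1, and miR-9-3p, once called miR-9*, is known to act on Rcor1, a partner of Rest.

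The mature strands are shown first because they pair with each other in the duplex yet carry unlike seeds, which are in capitals. Both are from RefSeq on GRCm38.p6 and are written from the 5′ end.
miR-9-5p: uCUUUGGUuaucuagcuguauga
miR-9-3p: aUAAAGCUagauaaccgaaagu
The 5p strand has 23 bases and the 3p strand 22. None of the 873 rows of the table with a RefSeq sequence, other than the strands themselves, shares either seed.

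Each strand has the same sequence at 3 loci, so the reads of the loci cannot be told apart. The hairpins are shown to place the strands within each precursor, with the 5p strand first and the 3p strand second in capitals.
Mir9-1: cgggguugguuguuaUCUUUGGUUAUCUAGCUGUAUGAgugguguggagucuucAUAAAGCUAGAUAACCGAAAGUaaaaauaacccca
Mir9-2: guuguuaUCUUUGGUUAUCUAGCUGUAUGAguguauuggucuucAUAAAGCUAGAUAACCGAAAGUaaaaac
Mir9-3: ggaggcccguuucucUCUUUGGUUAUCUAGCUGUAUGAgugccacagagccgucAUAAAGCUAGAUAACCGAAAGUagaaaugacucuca
Mir9-1 lies at chr3:88215598-88215686 on the plus strand, inside introns of the long noncoding RNA gene Gm3764, where 5 transcripts contain it and none has an exon over it. Mir9-2 lies at chr13:83738814-83738885 on the plus strand within the long noncoding RNA gene C130071C03Rik, where 2 transcripts contain it and an exon of 1 of them overlaps it. Mir9-3 lies at chr7:79505264-79505353 on the plus strand, inside introns of its host gene Mir9-3hg, with 4 transcripts that contain it. The strands are separated by 16 bases in Mir9-1, 14 in Mir9-2 and 16 in Mir9-3. The lower case bases outside the strands differ among the loci, but mature reads do not cover them.

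The table holds reads per miRNA times a factor for each library, a signal named by the authors as TMM-normalized. The recovered miRNA reads ran from 56377 to 1060306 per library and the column totals from 46965.1 to 830401.5, so libraries are not brought to 1 sum. Therefore 3 scales were kept side by side: the value as deposited, the value relative to the median miRNA, for which each library was divided by a median-of-ratios factor, and the share of the library's miRNA signal. On the deposited scale the median of all 521 tested miRNAs moved by 2.25 (log2) between D3 at day 7 and day 0, and by −0.21 in B8. On the relative scale the same medians were 0.27 and −0.06. Both members passed the filter on low values, miR-9-3p only through its levels at days 7 and 21.

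miR-9-5p was scarce in undifferentiated cells of both lines and among the most abundant miRNAs of the day 7 embryoid bodies. In D3 its deposited values were 5.18, 16.2 and 12.5 at day 0, then 9880 and 8185 at day 7, and 910, 1380 and 1602 at day 21. No library of one D3 stage reached into the range of another. Of all 521 miRNAs, 73.9% were higher at day 7 than at day 0 with no overlap, 67.6% were higher at day 21 than at day 0 and 51.2% were lower at day 21 than at day 7. In B8 it had 1723, 1301 and 1913 at day 7, against 32.3, 35.7 and 30.2 at day 0. The B8 groups did not overlap either, as for 24.8% of all miRNAs tested in that direction. The reads behind the lowest group, D3 at day 0, were 10, 30 and 15, which left a coefficient of variation of 49.6% there, against 8.45% in B8 at day 0.

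Ordered by mean deposited value, miR-9-5p stood highest in D3 at day 7 (9032 ± 1199, SD, n = 2), then in B8 at day 7 (1646 ± 313, n = 3), D3 at day 21 (1297 ± 354, n = 3), B8 at day 0 (32.7 ± 2.77, n = 3) and D3 at day 0 (11.3 ± 5.60, n = 3). The neighbours B8 at day 7 and D3 at day 21 overlapped. On the share of the miRNA signal the same order held, with means of 1.16% ± 0.0394, 0.941% ± 0.0388, 0.566% ± 0.0645, 0.0235% ± 0.00219 and 0.0193% ± 0.00977. There the neighbours B8 at day 7 and D3 at day 21 were apart, while the day 0 groups of the lines overlapped. By rank among the miRNAs of a library, miR-9-5p was 7th in both D3 libraries of day 7, 16th to 17th in B8 at day 7, 35th to 40th in D3 at day 21, 166th to 181st in B8 at day 0 and 165th to 239th in D3 at day 0. As these are bulk samples, more cells with miR-9 and more miR-9 per cell cannot be told apart.

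**Figure D1:**
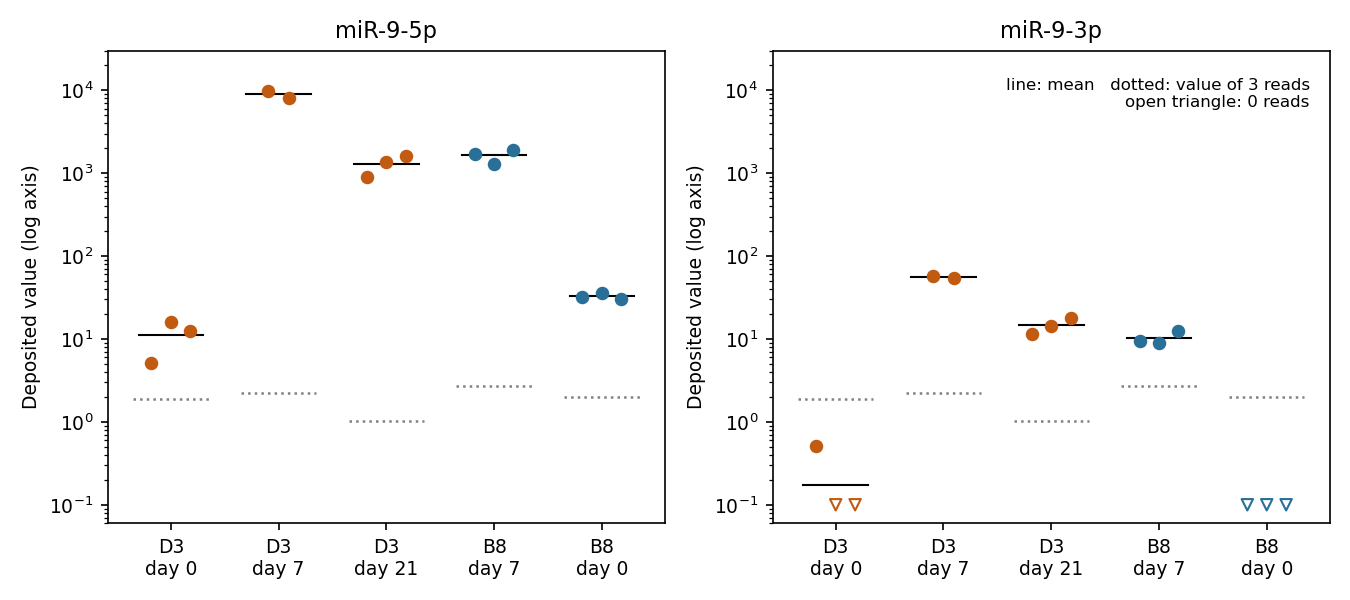
Deposited values of miR-9-5p (left) and miR-9-3p (right) in each library on a log axis, with the group mean as a line, the value of 3 reads as a dotted line and libraries at 0 as open triangles. Both strands are highest in D3 at day 7, where miR-9-5p averaged 9032 and miR-9-3p 55.8, and miR-9-3p is under 3 reads in all 6 day 0 libraries.

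miR-9-3p was at or next to 0 before differentiation and was counted in every library after it. In D3 it had 0.518, 0 and 0 at day 0, from a single read, then 58.0 and 53.7 at day 7 (74 and 75 reads), and 11.6, 14.5 and 17.9 at day 21 (35, 49 and 45 reads). In B8 it had 9.41, 8.95 and 12.4 at day 7 (12, 16 and 9 reads), against no read in any of the 3 libraries at day 0. The day 0 libraries were thus below all later ones in both lines. Of all 521 miRNAs, 73.9% were higher without overlap in D3 at day 7, 67.6% in D3 at day 21 and 24.8% in B8 at day 7. miR-9-3p passed the filter only through its levels at days 7 and 21, so its separation from day 0 follows in part from the filter. The group means were 55.8 ± 3.03 in D3 at day 7, 14.7 ± 3.14 in D3 at day 21 and 10.2 ± 1.85 in B8 at day 7 (SD, n = 2, 3 and 3). A value of 3 reads, the most that a count of 0 allows, averaged 1.89 over D3 at day 0 and 2.01 over B8 at day 0. miR-9-3p ranked 199th to 200th in D3 at day 7, 220th to 252nd in B8 at day 7 and 261st to 269th in D3 at day 21.

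miR-9-5p rose between day 0 and day 7 in both lines. In D3, miR-9-5p was 801-fold higher at day 7 than at day 0 as a ratio of mean deposited values, a log2 change of 9.72 ± 0.34 (SE; limma, adjusted p = 3.0e-18). Of all 521 miRNAs, 70.4% were called higher in that comparison, and 10 had a larger change than miR-9-5p. Relative to the median miRNA the log2 change was 7.46 (adjusted p = 1.0e-11), with 36.1% called higher, and as a share of the signal it was 6.06 (adjusted p = 1.7e-10), with 21.1% called higher. In B8 the ratio of day 7 over day 0 was 50.3-fold, a log2 change of 5.62 ± 0.30 (limma, adjusted p = 1.4e-13), in a comparison where 21.9% were called higher and 6 miRNAs changed more. The relative and share values for B8 were 5.85 and 5.31 on the log2 scale, both past the threshold, with 26.9% and 18.2% of miRNAs called higher.

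For the 3p strand the comparison with day 0 is a description, because the filter kept it only through days 7 and 21, and no test of it is given. In D3 its 149 reads at day 7, against 1 read at day 0, gave a ratio of scaled reads of 278 with a 95% counting interval of 49.1 to 11050. In B8 its mean at day 7 was 5.10 times the group floor of 3 reads per library at day 0. Such intervals and floors cover counting error only.

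At day 21 the level of miR-9-5p in D3 was still far above day 0 but below day 7. It was 115-fold higher at day 21 than at day 0, a log2 change of 6.88 ± 0.30 (limma, adjusted p = 2.2e-16), where 65.3% of miRNAs were called higher and 22 rose more. The relative and share values were 5.36 and 5.02, both past the threshold, with 38.0% and 34.0% of miRNAs called higher. Against day 7 it fell by 2.83 ± 0.34 on the log2 scale (adjusted p = 9.0e-07), where 31.5% were called lower and 11 miRNAs fell more. The fall was 2.10 relative to the median miRNA (adjusted p = 0.00020, 10.4% called lower) and 1.04 as a share of the signal (adjusted p = 0.020). On the share scale miR-9-5p was 1 of 11 miRNAs called lower, 2.11% of those tested, and 38.0% were called higher. With library totals made equal outside miR-10a and miR-10b, the log2 difference was −2.37 (limma, adjusted p = 7.0e-05).

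How far miR-9-3p fell after day 7, and whether the fall passed the threshold, depended on the scale. As deposited it fell by 1.91 ± 0.49 on the log2 scale (limma, adjusted p = 0.0033). Relative to the median miRNA the difference was −1.19 (interval −2.40 to 0.02, adjusted p = 0.14). As a share of the signal it was −0.16 (interval −1.51 to 1.19, adjusted p = 0.87), with means of 0.00644% ± 0.000136 at day 21 and 0.00721% ± 0.000324 at day 7. Against day 0, day 21 had 129 reads against 1, a ratio of scaled reads of 72.2 with a counting interval of 12.7 to 2872, given as a description for the same reason.

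The difference between the lines also depended on the scale. At day 7, miR-9-5p was 5.49-fold higher in D3 than in B8 as deposited, a log2 difference of 2.47 ± 0.34 (limma, adjusted p = 1.1e-06), where 66.0% of miRNAs were called higher in D3 and 69.5% did not overlap in that direction. Relative to the median miRNA it was 1.98-fold higher, with a log2 difference of 0.99 (adjusted p = 0.029) and 24.4% called higher. That call was lost without any one of 4 libraries: the adjusted p was 0.064 without B8 day 7 replicate 1, 0.073 without B8 day 7 replicate 2, 0.19 without D3 day 7 replicate 2 and 0.078 without D3 day 7 replicate 3. As a share of the signal the log2 difference was 0.30 (interval −0.42 to 1.02, adjusted p = 0.56). The column totals of D3 at day 7 (721724 and 830402) were the highest of the 14 libraries, against 143539 to 194623 in B8 at day 7, and their part in the difference was not tested.

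miR-9-3p followed its partner strand in this comparison. It was 5.45-fold higher in D3 than in B8 at day 7 as deposited, a log2 difference of 2.41 ± 0.49 (limma, adjusted p = 0.00014). The difference was 0.97 relative to the median miRNA (adjusted p = 0.19) and 0.29 as a share of the signal (adjusted p = 0.78).

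Before differentiation, miR-9-5p was lower in D3 than in B8 on the deposited scale, by a log2 difference of −1.63 ± 0.30 (limma, adjusted p = 9.1e-05). There 46.1% of all miRNAs were called lower in D3 and 52.4% did not overlap in that direction. The difference was −0.62 relative to the median miRNA (adjusted p = 0.18), where the groups overlapped, and −0.44 as a share of the signal (adjusted p = 0.34). With a library left out, the relative difference ran from −0.93 without D3 day 0 replicate 3 (adjusted p = 0.036) to −0.11 without D3 day 0 replicate 1 (adjusted p = 0.74). The 3p strand was at or under 3 reads in every day 0 library, so no comparison of the lines was made for it.

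The rise of miR-9-5p to day 7 was larger in D3 than in B8 by 4.10 ± 0.46 on the log2 scale as deposited (limma interaction, adjusted p = 3.6e-08), where 71.8% of miRNAs were called in that direction. The excess was 1.61 relative to the median miRNA (adjusted p = 0.011, 20.2% called higher) and 0.75 as a share of the signal (interval −0.22 to 1.71, adjusted p = 0.27). Without D3 day 7 replicate 2 the relative value was 1.48 (adjusted p = 0.060). In the plot of the changes on 3 scales, the comparisons within a line keep their sign and stand clear of 0, though those in D3 also shrink. Those between lines keep their sign and shrink, and as a share of the signal all their intervals include 0. Relative to the median miRNA, the intervals of the day 7 difference and of the interaction do not include 0.

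**Figure D2:**
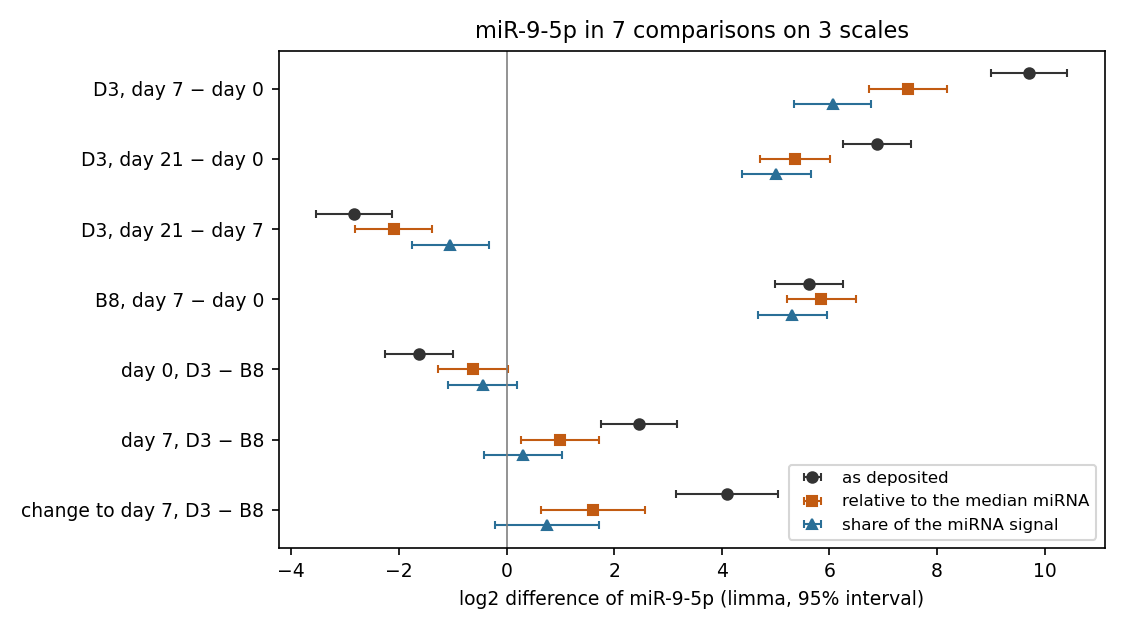
Log2 differences of miR-9-5p (points, with 95% intervals from limma) in 7 comparisons, as deposited, relative to the median miRNA and as a share of the miRNA signal. The change to day 7 in B8 is 5.31 to 5.85 on all 3 scales, while the difference of the lines at day 7 runs from 2.47 as deposited to 0.30 as a share.

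The ratio of the strands needs no scaling between libraries, and it was strongly in favour of miR-9-5p wherever it could be measured. The 3p share of all miR-9 reads was 0.583% and 0.652% in the D3 libraries of day 7, and 1.26%, 1.04% and 1.10% in those of day 21. It was 0.543%, 0.683% and 0.641% in B8 at day 7. The day 21 libraries lay above all 5 libraries of day 7, and the lines overlapped at day 7. Pooled over a group, the share was 0.616% in D3 at day 7 (149 of 24200 reads, exact Clopper-Pearson interval 0.521 to 0.722%), 1.11% in D3 at day 21 (129 of 11574 reads, 0.931 to 1.32%) and 0.621% in B8 at day 7 (37 of 5955 reads, 0.438 to 0.855%).

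Expressed as 5p reads per 3p read, the means were 161 ± 12.7 in D3 at day 7, 87.7 ± 8.73 in D3 at day 21 and 161 ± 19.7 in B8 at day 7 (SD, n = 2, 3 and 3). At day 0 the ratio could not be measured. The 56 reads of D3 held 1 of the 3p strand, with an exact interval of 0.0452 to 9.55%. The 154 reads of B8 held none, with an exact interval of 0 to 2.37%. Both intervals hold the later shares within them, so no test against day 0 was made.

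**Figure D3:**
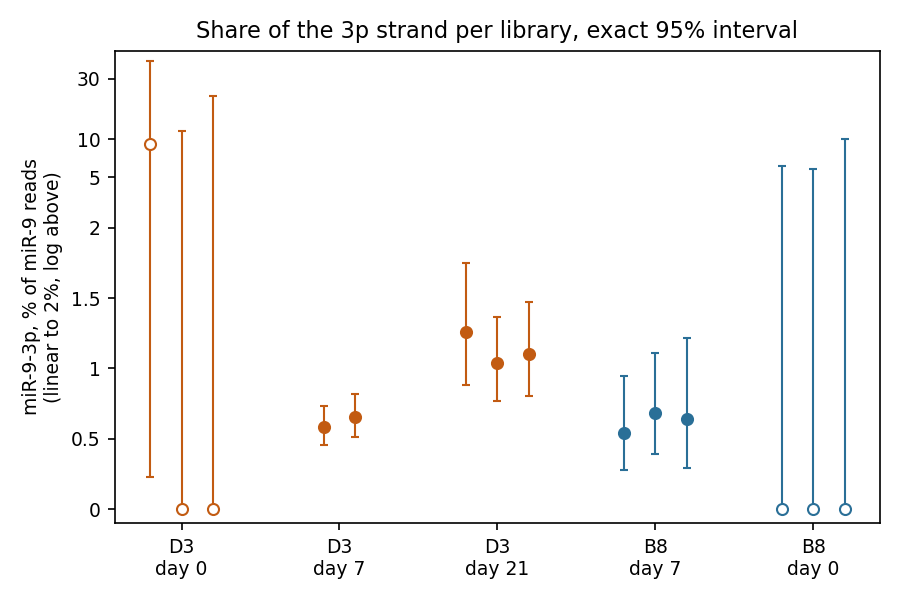
Share of miR-9-3p among the reads of both strands in each library with its exact 95% interval (linear to 2%, logarithmic above), with libraries of at most one 3p read as open points. The D3 libraries of day 21 lie between 1.04 and 1.26%, those of day 7 between 0.543 and 0.683% in both lines, and the day 0 intervals span all of these.

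The higher 3p share at day 21 did not pass a test over samples. The mean was 1.13% ± 0.115 in D3 at day 21, against 0.617% ± 0.0483 at day 7 (SD, n = 3 and 2), with an exact permutation p of 0.1, the smallest that 10 arrangements can give (two-sided). Of 149 hairpins with both strands tested, 14.8% had a 3p share that was higher at day 21 with no overlap. On the log2 ratio of 5p over 3p, limma gave −0.92 ± 0.59 (interval −2.20 to 0.37, adjusted p = 0.62), where 2.01% of hairpins were called in either direction. With the day 0 libraries left out of the fit the same difference had an SE of 0.29 and an interval of −1.58 to −0.26 (unadjusted p = 0.013, limma adjusted p = 0.13). Between D3 and B8 at day 7 the log2 ratio differed by 0.06 (interval −1.22 to 1.35, limma adjusted p = 0.95), where 3.36% were called, and the exact permutation p of the shares was 1.

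Among other hairpins with at least 100 reads over both strands in a group, a bias to the 5p strand as strong as that of miR-9 was not the rule but was not rare. The log2 ratio of 5p over 3p reads was 7.33 for miR-9 in D3 at day 7, against a median of 0.99 over 143 hairpins, 27 of which had a higher ratio. At day 21 in D3 it was 6.47 against a median of 0.83, with 40 of 188 higher. In B8 at day 7 it was 7.30 against 1.68, with 27 of 124 higher. Other hairpins of the neural list differed in the strand that prevailed. In D3 at day 7, miR-92b had 2 reads of the 5p strand and 40320 of the 3p strand, and miR-153 had 1 and 262. miR-124 had 88 of the 5p strand and 17 of the 3p strand, and miR-7b had 21 and 6. The 5p and 3p reads were 5 and 254 for miR-132, 0 and 99 for miR-488, 16 and 73 for miR-212 and 24 and 45 for miR-325. miR-7b, miR-488, miR-212 and miR-325 had under 100 reads over both strands. The 5p strand thus prevailed only for miR-124 and miR-7b, as for miR-9, and the 3p strand for all the others named.

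The miRNAs whose levels ran most like miR-9-5p over the 14 libraries, by Pearson correlation of relative log2 values among 520 others, were miR-10b-5p (r = 0.984), miR-10a-3p (r = 0.982), miR-219a-2-3p (r = 0.980), miR-10a-5p (r = 0.978) and miR-3099-3p (r = 0.977). miR-10a and miR-10b lie in Hox clusters, whose genes respond to retinoic acid, and miR-219a is known from the oligodendrocyte lineage. The strand miR-9-3p itself stood 25th (r = 0.945), and 18th over the 8 libraries of days 7 and 21 (r = 0.901). Most like miR-9-3p were miR-3099-3p (r = 0.972), miR-328-3p (r = 0.971), miR-135a-1-3p (r = 0.967), miR-219a-2-3p (r = 0.966) and miR-676-3p (r = 0.964), with miR-9-5p 11th. These correlations describe 14 libraries in 5 groups, which share their scaling. At day 0, miR-3099-3p and miR-135a-1-3p had no read in either line, and miR-9-3p had 1 read in all. miR-10a-3p had 2 reads in B8 and 0 in D3, and miR-219a-2-3p had 3 and 5. For these miRNAs r sets day 0 values at or near 0 against later ones, and the part of such values in r was not tested.

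The likest miRNAs differed from miR-9-5p in size, and miR-10a-5p and miR-10b-5p also in the size of the contrast of the lines. Relative means of miR-10a-5p were 75.8 in D3 at day 0, 137069 at day 7 and 9261 at day 21, with 52209 in B8 at day 7 and 502 at day 0. Those of miR-219a-2-3p were 2.43, 581 and 175 in D3 over the same days, with 409 in B8 at day 7 and 0.682 at day 0. The rise to day 7 was larger in D3 than in B8 by a relative log2 value of 4.19 for miR-10a-5p and 3.675 for miR-10b-5p. It was 1.61 for miR-9-5p, and no test compared these miRNAs with it. For miR-10a-3p the value was 2.75, with 2 day 0 reads in B8 and 0 in D3. For miR-3099-3p, with no read at day 0, it was −0.04. For miR-219a-2-3p the value was −0.73. Its day 0 groups held only 3 reads in B8 and 5 in D3, so no comparison is drawn from that value. Between day 7 and day 21 in D3, miR-10a-5p fell by 3.90 on the relative log2 scale and miR-219a-2-3p by 1.73, beside 2.10 for miR-9-5p. These miRNAs were chosen by their correlation with miR-9-5p over the same libraries, so a shared direction follows in part from the choice. Their changes are therefore given as sizes and not as tests.

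**Figure D4:**
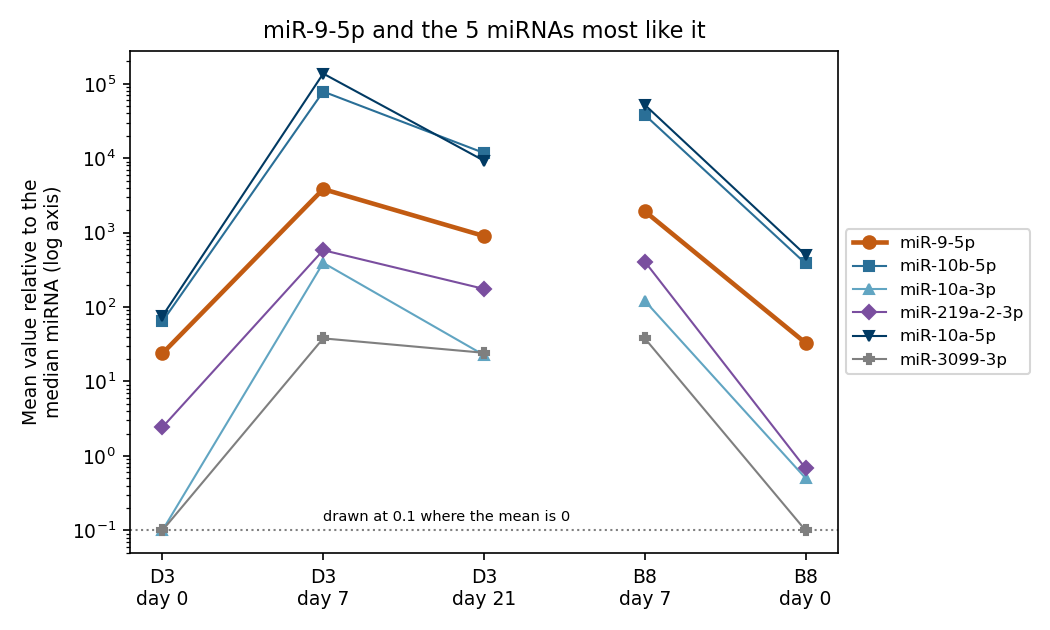
Mean values relative to the median miRNA (log axis) of miR-9-5p and of the 5 miRNAs most correlated with it, in the 5 groups of line and day, with means of 0 drawn at 0.1. All 6 are higher at day 7 than at day 0 in both lines, which the choice by correlation favours. The highest mean is that of miR-10a-5p, 137069 in D3 at day 7.

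Other miRNAs known from neural cells, 28 listed without miR-9, of which 22 were tested, rose in part with miR-9. Between day 7 and day 0 in D3, 20 of the 22 rose and 1 fell as deposited (14 and 1 relative to the median miRNA), with a median log2 change of 3.90 as deposited against 2.25 for all miRNAs. Of all 521 miRNAs, 70.4% were called higher and 6.91% lower as deposited, and 36.1% and 26.9% in relative values. In B8, 10 rose and 1 fell on both scales, with a median of 1.08 as deposited against −0.21 for all. There 114 of all 521 miRNAs (21.9%) were called higher and 146 lower as deposited, and 140 (26.9%) and 134 (25.7%) in relative values. miR-92b-3p, known from neural progenitors, had 15128 ± 1576 in D3 at day 7, against 1133 ± 208 at day 0, a log2 change of 3.75 (limma, adjusted p = 6.8e-11; relative 1.45, adjusted p = 0.00041). miR-128-3p, a brain-enriched miRNA, had 308 ± 21.2 and 37.7 ± 11.2 in those groups (log2 change 3.06, adjusted p = 2.5e-09; relative 0.77, adjusted p = 0.0079), and in B8 73.4 ± 24.7 at day 7 against 94.6 ± 4.52 at day 0 (−0.42, adjusted p = 0.21; relative −0.19, adjusted p = 0.46). miR-7a-5p, known from neuroendocrine cells and brain, was the member that fell: in D3 it had 106 ± 20.0 at day 7 against 235 ± 67.2 at day 0 (log2 change −1.11, adjusted p = 0.0037), and in B8 82.3 ± 38.3 against 433 ± 94.8 (−2.46, adjusted p = 1.4e-07). Its relative changes were −3.40 in D3 and −2.24 in B8 (adjusted p = 4.6e-09 and 4.0e-07), so the order of the lines turned with the scale: the interaction was 1.35 as deposited (adjusted p = 0.0081) and −1.17 relative (adjusted p = 0.013).

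At day 21 the list again moved in part with miR-9-5p. Between day 21 and day 0, 18 of the 22 rose and 1 fell, against 12 and 2 in relative values, where 65.3% of all miRNAs were called higher as deposited and 38.0% in relative values. Between day 21 and day 7, 13 of the 22 fell as deposited, with a median log2 change of −1.41 against −0.60 for all miRNAs and 31.5% of all called lower. In relative values 1 rose and 6 fell, with a median of −0.68 against 0.02 for all, where 16.1% of all were called higher and 10.4% lower. miR-219a-1-3p had 23.0 ± 1.93 at day 21 against 192 ± 6.81 at day 7, a log2 change of −3.04 (limma, adjusted p = 1.1e-06; relative −2.31, adjusted p = 9.8e-05). miR-92b-3p had 4758 ± 121 against 15128 ± 1576 in the same groups (−1.67, adjusted p = 0.00017). Between D3 and B8, 3 of the 22 were called lower in D3 at day 0 as deposited, in a comparison where 46.1% of all miRNAs were. In relative values 3 were called higher, against 7.68% of all. At day 7, 18 were called higher in D3 as deposited, where 66.0% of all miRNAs were. In relative values 8 were called higher and 1 lower, against 24.4% and 16.3% of all. For the difference in the change to day 7, 19 were called higher in D3 as deposited, where 71.8% of all miRNAs were. In relative values 3 were called higher and 1 lower, against 20.2% and 12.5% of all.

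The table also holds both strands of miR-3093, which lies beside Mir9-1 on the same DNA strand, the 5p strand 391 bases and the 3p strand 351 bases from the miR-9 hairpin. miR-3093-3p was above 0 in 2 libraries, at no more than 0.783. miR-3093-5p had no read in the 6 libraries of day 0. It had 15 reads in D3 at day 7 (5.71 ± 3.01, n = 2), 4 in D3 at day 21 (0.406 ± 0.447, n = 3) and 5 in B8 at day 7 (1.28 ± 0.454, n = 3), too few for its own test.

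The day 0 label matched the markers of pluripotent cells. The lists of other lineages did not move alike in the lines, and in B8 the mesenchymal, epithelial, and blood and endothelial lists held smaller shares at day 7 than at day 0. The 17 entries of the miR-290 and miR-302 clusters summed to 20.0 to 25.1% of the miRNA signal in D3 at day 0, 0.685 to 0.695% at day 7 and 1.30 to 1.46% at day 21, and to 5.97 to 10.6% in B8 at day 7, against 25.8 to 28.9% at day 0. The 6 mesenchymal miRNAs held 0.194 to 0.250%, 0.994 to 1.35% and 5.49 to 6.98% in D3 at days 0, 7 and 21, and 0.467 to 1.44% in B8 at day 7, against 1.55 to 1.85% at day 0. The 7 muscle miRNAs reached 0.129 to 0.351% in D3 at day 21 and stayed at or below 0.00585% elsewhere, with 4 of them at 0 throughout D3 at day 0, 2 at D3 day 7 and 3 in each B8 group. The endodermal list was highest in D3 at day 21 (0.253 to 0.307%), and the epithelial list (0.691 to 0.820%) and the blood and endothelial list (0.280 to 0.301%) in B8 at day 0. The neural list itself held 2.03 to 2.72%, 2.30 to 2.32% and 1.97 to 2.94% of the signal in D3 at days 0, 7 and 21. In B8 it held 1.88 to 3.53% at day 7, against 1.11 to 1.40% at day 0. Most of that sum was 1 entry, miR-92b-3p. Its mean deposited value in D3 was 1133 beside list sums of 1215 to 1711 at day 0, 15128 beside 16592 to 19245 at day 7, and 4758 beside 5350 to 5727 at day 21. In B8 it was 1145 beside 1637 to 1857 at day 0, and 4172 beside 2698 to 6879 at day 7. The part of these cell mixtures in the levels of miR-9 was not tested.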

How the data were processed

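The deposited values are signal: the reads of each mature miRNA multiplied by 1 number per library, which the authors' table title calls TMM. In every library 100% of values up to 1000 reads were whole within 0.01 read after division by the smallest value. The submitters' processing notes name CASAVA, FastQC, Bowtie, Partek and mm10, and per the file headers reads passed cutadapt and a length step. Versions, multi-mapping rules and the basis of the factors are not given in the sources used here.

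Of 17 labelled samples, 14 in 5 groups were analysed, and 3 (B8 at day 21) were not analysed here. Whether replicates came from separate cultures is not in the labels, and p-values then cover only the spread of these libraries, possibly a technical one. The filter kept 521 of 1033 miRNAs, those averaging 5 or more per 1000000 of a column's total. log2 of the deposited value plus 0.48 was fitted with limma 3.58.1 (R 4.3.3) by group means with a trended prior, two-sided, with Benjamini-Hochberg adjustment over all 521 and a threshold of 0.05. Fold changes on this scale understate changes of low miRNAs. Strand ratios were fitted the same way over 149 hairpins of 333 named pairs. The relative scale used median-of-ratios factors over 319 miRNAs above 0 in all libraries. As an alternative, edgeR 4.0.16 was run on the recovered reads. The fits were tested on simulated data.

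Named miRNAs were both strands, the 5 most correlated with each and up to 3 abundant neural miRNAs past the threshold per comparison. Members and lists were chosen with earlier results of these data known. Sequences are from RefSeq (GRCm38.p6) and transcripts from GENCODE M21. The antisense entries of miR-9 were not analysed here.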

Additional observations from a re-analysis of the deposited data

Results flagged for a closer look

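The rise of miR-9-5p to day 7 differed between the lines by a log2 value of 4.10 as deposited (limma interaction, adjusted p = 3.6e-08), higher in D3 than in B8. The same difference was 1.61 relative to the median miRNA and 0.75 as a share of the miRNA signal, where it did not pass the threshold. The groups hold 2 or 3 libraries, so no search for a library far from the rest of its group was made.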

How the results depend on the processing

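Calls within each line for miR-9-5p kept their direction and side of the threshold under all 13 alternatives, and with any library left out. Between lines, the difference of miR-9-5p at day 0 no longer passed with equal column totals (−0.44), median-of-ratios factors (−0.62, and −0.62 with a replicate block), totals outside miR-10a and miR-10b (−0.45) or edgeR with TMM (−0.62). With equal totals the day 7 difference was 0.30 and the interaction 0.75, neither past the threshold. Outside miR-10 they were 0.999 and 1.445, and with edgeR and TMM 0.73 and 1.35, all past the threshold. For miR-9-3p, day 21 against day 7 no longer passed with a pseudocount of 0.2 per 1000000 (−1.95), equal totals (−0.16), median-of-ratios factors (−1.19, −1.31 with the block) or totals outside miR-10 (−1.45). D3 against B8 at day 7 no longer passed at 0.29 with equal totals, 0.97 and 1.08 with median-of-ratios factors without and with the block, 0.97 outside miR-10 and 0.76 with edgeR and TMM. The cause was not tested.

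The number of called miRNAs moved by over 1.5 times in 6 comparisons and is given as a percent of those tested. With a filter at 50 per 1000000, 293 were tested, and 251 were called (85.7%) for D3 day 7 against day 0, 258 (88.1%) for day 21 against day 0 and 261 (89.1%) for D3 against B8 at day 7, beside 403, 393 and 392 of 521. For day 21 against day 7 it was 25.7% outside miR-10, and 22.3 to 42.2% with a library left out, the lowest without D3 day 7 replicate 2, beside 39.5%. For D3 against B8 at day 0 it was 22.8% with edgeR and TMM, 21.7% with equal totals, 22.3% outside miR-10, 23.4% with median-of-ratios factors and 24.0% with the block added, beside 47.0%. In the same order, day 7 gave 41.5, 31.3, 38.8, 40.7 and 39.9%, beside 75.2%, and the interaction 30.5, 30.5, 30.9, 32.6 and 34.0%, beside 74.3%.

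Replicate numbers did not pair the samples: 26 correlations of same-numbered deviations ran from −0.12 to 0.13, with 1 over 0.1. With the block as the one change, no call of the members changed (miR-9-5p, D3 day 7 against day 0, 9.55). The equal totals outside miR-10, the block on the relative scale and the strand ratio without day 0 were chosen after seeing the data. miR-9-3p and the strand ratio had no value under the filter at 50 per 1000000, which the strand does not reach. With 1 library left of D3 at day 7, that library is assumed to vary like the other groups. Day 0 depth limits the 3p strand and the strand ratio.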
